A study of Danio rerio with 2 samples.

Results

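The embryonic globins and red-cell genes described here are 6 of the 22342 genes in the deposited tables. They were chosen by name and identifier, with earlier results of these data known. They are hbae3 (ENSDARG00000079305), hbae1.3 (ENSDARG00000089124), hbae1.1 (ENSDARG00000089475), HBE1 (ENSDARG00000045143), cahz (ENSDARG00000011166) and alas2 (ENSDARG00000038643). All 6 were detected on both plates. The cells were taken from zebrafish embryos 3 days after fertilization, of which only the tails were used. Every embryo carried the transgenes mpeg1:EGFP, driven by a macrophage promoter, and runx1+23:mCherry, driven by an enhancer active in hematopoietic stem and progenitor cells (HSPCs). EGFP+mCherry+ cells were sorted into wells 1 to 192 and EGFP+mCherry- cells into wells 193 to 384 of each of 2 plates, so every cell of either gate was EGFP+. The 384 well barcodes are the same on both plates. No wild-type embryo, mCherry-only cell or empty-well control is among the groups.

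Hemoglobin of the vertebrate embryo is built from alpha-type and beta-type globin chains that differ from the adult ones, and each chain holds a heme. In zebrafish, primitive red cells that arise in the early embryo circulate for the first days of life, while HSPCs lodge in the vascular plexus of the tail, the caudal hematopoietic tissue, where new red cells begin to form. Macrophages of this tissue clear aged or damaged cells and recycle heme iron. Among the 6 genes, hbae3, hbae1.3 and hbae1.1 encode embryonic alpha-type chains. HBE1 is the name of the human embryonic beta-type chain and is attached here to a zebrafish identifier. cahz encodes the carbonic anhydrase of zebrafish red cells, and alas2 the erythroid form of the enzyme that starts heme synthesis. In the RefSeq gene order of another assembly, hbae1.3 and hbae3 are direct neighbors, hbae1.1 lies on the same chromosome between other globin genes, and cahz and alas2 lie on other chromosomes. No sequence of these genes is shown, since no sequence table was used here.

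The values are unique molecular identifiers (UMIs), each counting a captured transcript end, so they are not scaled by gene length. Of 768 wells, 534 had at least 500 UMIs and 200 genes and were kept. Plate 1 kept 143 mCherry+ and 151 mCherry- wells, and plate 2 kept 123 mCherry+ and 117 mCherry- wells. Kept wells held 531 to 122165 UMIs on plate 1 and 507 to 214558 UMIs on plate 2. Clustering on genes other than these 6 and other red-cell genes named only 219 kept wells macrophage-like. It named 121 neutrophil-like, 75 progenitor-like, 23 fibroblast-like and 13 muscle-like, and 83 stayed unnamed. The gates differed in these classes. Progenitor-like wells were 21.1% of mCherry+ and 7.09% of mCherry- wells, and neutrophil-like wells were 6.77% of mCherry+ and 38.4% of mCherry- wells.

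Transcripts of the 6 genes were concentrated in a handful of wells. A well was called rich when the 6 genes together made up at least 1% of its UMIs, and 9 of 534 kept wells (1.69%) met this. They held 15053 of the 15700 UMIs of the 6 genes in kept wells (95.9%), while holding 4.48% of all UMIs. The remaining 525 kept wells held 646. Among these, 218 wells had none, 305 had 1 to 10, and the highest had 31.1. The lowest rich well had 629 UMIs of the 6 genes, 20.3-fold above the highest other well. These values chose the wells and are given as a description. Just inside the threshold lay plate 2 well 134 at 1.05%, and just outside it lay a well at 0.658%, with 4 of 608 UMIs. A threshold of 100 UMIs of the 6 genes, chosen after the values were seen, picked 9 wells too.

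**Figure D1:**
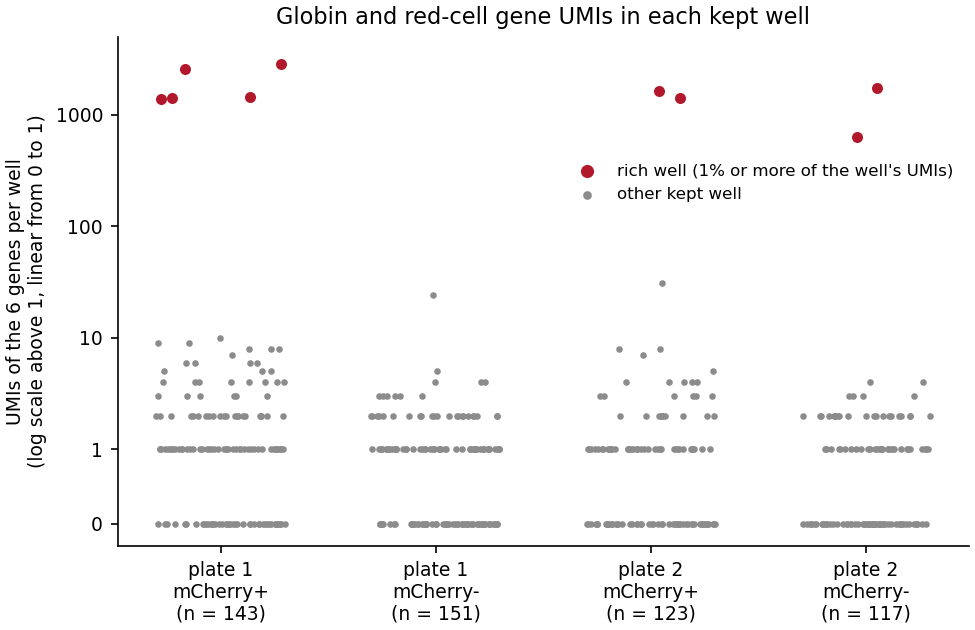
UMIs of the 6 genes (vertical axis, logarithmic above 1 and linear from 0 to 1) in each kept well, by plate and gate. Red points are the 9 rich wells and gray points the other kept wells. The lowest rich well had 629 UMIs, against 31.1 UMIs in the highest other well.

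Rich wells occurred in both gates, but not in every gate of every plate. On plate 1, 5 of 143 mCherry+ wells were rich (3.50%, 95% exact Clopper-Pearson interval 1.15 to 7.97%), against 0 of 151 mCherry- wells, a count that allows a share of up to 1.99% by the limit of 3 counts and up to 2.41% by the exact interval. On plate 2, 2 of 123 mCherry+ wells (1.63%, interval 0.198 to 5.75%) and 2 of 117 mCherry- wells (1.71%, interval 0.208 to 6.04%) were rich. Over both plates this made 7 of 266 mCherry+ wells (2.63%) and 2 of 268 mCherry- wells (0.746%). The intervals of the gates overlapped on each plate. They cover counting error only, and wells of a plate are not replicates.

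The rich wells resembled each other in the amount of these transcripts far more than in depth. Their UMIs of the 6 genes ranged from 629 to 2840 with a median of 1436, a 4.51-fold range, whereas their total UMIs ranged from 1964 to 136565, a 69.6-fold range. As a share of the well the 6 genes thus spanned 41.5% to 1.05%. In the mCherry+ gate the share was 41.5% in plate 1 well 141, 11.0% in well 167, 10.4% in wells 111 and 121, and 8.20% in well 168, and on plate 2 it was 9.89% in well 16 and 1.05% in well 134. In the mCherry- gate it was 32.0% in plate 2 well 366 and 4.64% in well 225. Wells 141 and 366, with the highest shares, were the shallowest at 3348 and 1964 UMIs, and well 134, with the lowest, was the deepest at 136565.

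**Figure D2:**
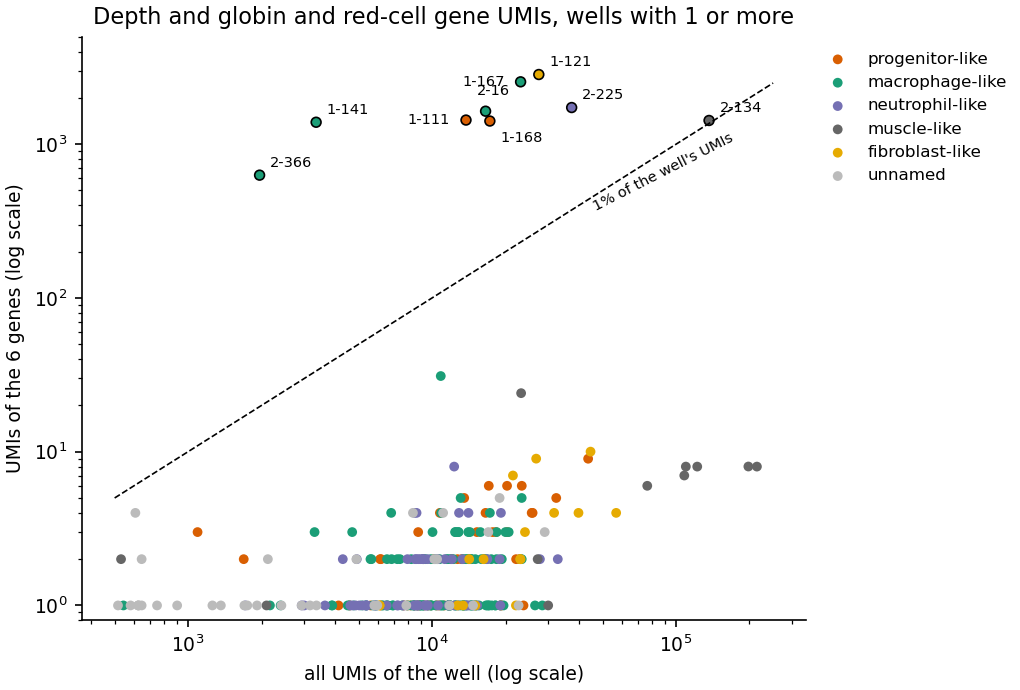
UMIs of the 6 genes against all UMIs of the well, both on log scales, for kept wells with at least 1 such UMI, colored by class. Outlined points are the rich wells, labeled by plate and well number, which lie between 629 and 2840 UMIs of the 6 genes over a 69.6-fold range of depth.

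All 6 genes had UMIs in all 9 rich wells. hbae3 was the most abundant in every one. It had 1033, 1917, 1047, 2105 and 1081 UMIs in mCherry+ wells 141, 167, 111, 121 and 168 of plate 1, 1308 and 1024 UMIs in mCherry+ wells 16 and 134 of plate 2, and 472 and 1144 UMIs in mCherry- wells 366 and 225. The highest other kept well had 21.1. For hbae3 the short tag limited the count, since the 2105 UMIs of well 121 rest on 1646 distinct tags, 40.2% of those possible, and the correction for repeated tags added 27.9% there.

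The minor alpha-type chains followed at lower UMI counts. hbae1.3 ranged from 74.7 to 320 UMIs per rich well, with at most 4 in any other kept well. hbae1.1 had 4 to 30.1 UMIs per rich well, and 123 of its 134 UMIs in kept wells lay there (91.8%). It was seen in only 10 other kept wells, none with more than 2 UMIs. The 3 alpha-type genes thus kept the same order, hbae3 above hbae1.3 above hbae1.1, in each of the 9 wells. Because hbae1.1 and hbae1.3 belong to a cluster of related copies, how reads were divided between them is uncertain.

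The beta-type, carbonic anhydrase and heme genes were likewise concentrated. HBE1 had 52.3 to 256 UMIs per rich well, and 94.8% of its 1414 UMIs lay in these wells. cahz had 13.0 to 62.5 UMIs per rich well (289 of 306 UMIs). alas2 had 13.0 to 66.5 UMIs per rich well (90.4% of 322 UMIs), the lowest such share of the 6. The symbol HBE1 is shared by 3 further identifiers. ENSDARG00000087390, not among the 6, had 6540 UMIs with 96.9% in the rich wells, and the other 2 had 3 and 2 UMIs, none in a rich well.

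The proportions among the 6 genes were similar from one rich well to the next. hbae3 made up 74.0% ± 3.7 of their summed UMIs (SD, n = 9 wells, range 66.0 to 79.8%). hbae1.3 made up 12.5% ± 2.9, HBE1 8.85% ± 2.8, alas2 1.95% ± 0.60, cahz 1.93% ± 0.57 and hbae1.1 0.793% ± 0.28. Per 100 hbae3 UMIs the rich wells had 12.2 to 25.2 UMIs of hbae1.3, a 2.06-fold range, and 6.17 to 17.8 UMIs of HBE1, a 2.89-fold range. They had 1.55 to 4.22 UMIs of cahz, 1.89 to 4.62 of alas2 and 0.484 to 1.49 of hbae1.1. Well 225 on plate 2 had the highest ratio for each of hbae1.3, hbae1.1, HBE1 and cahz, and well 134 that for alas2. The identifier ENSDARG00000087390 varied more, with a 5.39-fold range per hbae3 UMI. The 3 alpha-type genes together had 1.04 to 4.58 times the UMIs of both beta-type HBE1 identifiers (median 1.64), lowest in well 366 and highest in well 16, both on plate 2.

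**Figure D3:**
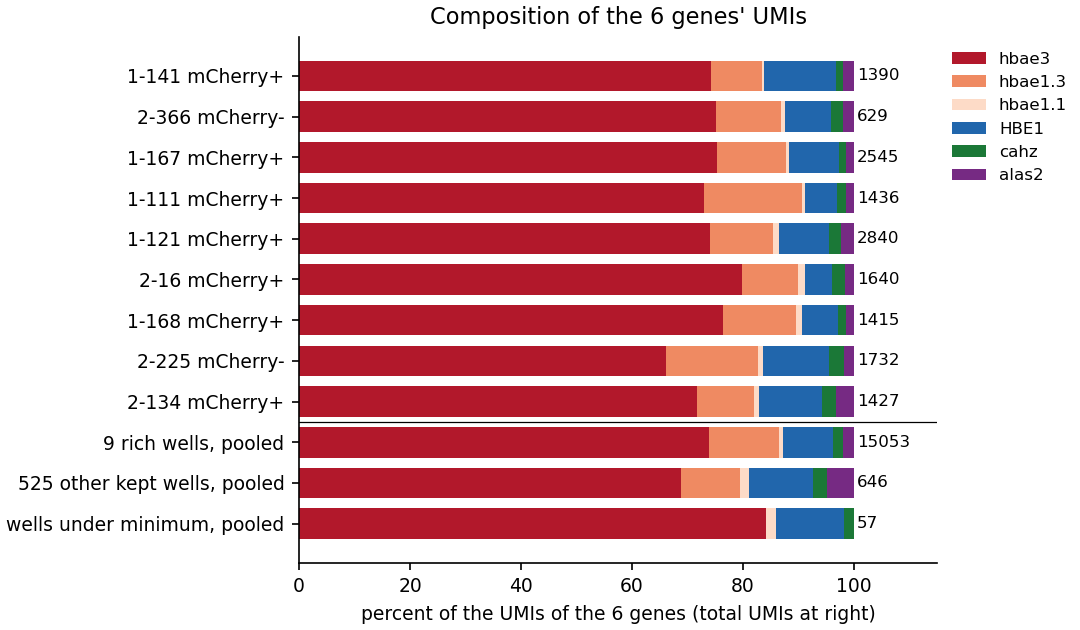
Share of each of the 6 genes in their summed UMIs (horizontal axis, percent), for each rich well in order of its share and for 3 pooled sets of wells, with the summed UMIs at the right. hbae3 fills 66.0 to 79.8% of every rich well's bar, 68.7% of the pooled other kept wells and 84.2% of the pooled wells under the minimum.

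hbae3 was also the largest part of the few UMIs in the other kept wells, but the pooled make-up differed for some genes. The intervals below treat UMIs as independent draws and leave out the spread between wells. Taken by plate, intervals separated on plate 1 only. hbae3 made up 73.9% (95% exact Clopper-Pearson interval 73.2 to 74.6%) of the UMIs pooled over the rich wells, against 68.7% (65.0 to 72.3%) of the 646 pooled over the other kept wells. alas2 made up 1.94% (1.72 to 2.17%) in rich wells against 4.80% (3.28 to 6.74%) in the others, and hbae1.3 12.5% (11.96 to 13.02%) against 10.7% (8.41 to 13.3%). The interval of alas2 in rich wells lay below that of the other wells, whose 4.80% also exceeded the 3.31% of the highest single rich well. On plate 1 hbae3 made up 74.6% (73.7 to 75.5%) in rich wells and 66.7% (61.8 to 71.3%) in the others, and alas2 1.79% (1.53 to 2.07%) and 5.30% (3.31 to 7.99%). HBE1 separated there too, at 8.74% (8.18 to 9.32%) in rich wells and 12.9% (9.74 to 16.6%) in the others. So did hbae1.1, at 0.739% (0.577 to 0.930%) and 2.5% (1.22 to 4.6%). The plate 1 intervals of hbae1.3 and cahz overlapped. Single rich wells of both plates ranged from 66.0 to 79.8% for hbae3 and from 4.93 to 13.1% for HBE1. These ranges took in the 66.7% and 12.9% of the other wells of plate 1. The lowest single rich well of plate 1 alone had 72.9% hbae3, and its highest had 13.1% HBE1. For hbae1.1 the range of 0.360 to 1.16% did not take in the 2.5%. On plate 2 the intervals overlapped, with hbae3 at 72.7% (71.5 to 73.9%) in rich wells and 72.0% (66.0 to 77.5%) in the others, and alas2 at 2.20% (1.82 to 2.62%) and 4% (1.94 to 7.23%). For alas2 the direction was the same on both plates. Wells under the minimum differed more: hbae1.3 had 0 of their 57 UMIs (0 to 6.27%), and hbae3 made up 84.2% (72.1 to 92.5%).

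The marker content of the rich wells differed from well to well, apart from red-cell markers. The 14 red-cell markers outside the 6 genes had 18.2 to 173 UMIs per 10000 in the rich wells. They had 17 and 34 UMIs in wells 141 and 366. Class medians outside the rich wells were 0 to 2.025 per 10000, and the highest such well, an unnamed one, had 90.8. These markers include globins and the rich wells were chosen on globins, so this is a description. Wells 141 (plate 1) and 366 (plate 2) fell into a macrophage-like cluster, yet held only 1 and 2 UMIs over the 16 macrophage markers measured, so their markers do not bear out that name. Wells 167 (plate 1) and 16 (plate 2) were macrophage-like with 169 and 264 macrophage-marker UMIs, or 73.1 and 159 per 10000 UMIs, against a median of 67.0 in the 215 other macrophage-like wells. Wells 111 and 168 of plate 1 were progenitor-like, with 13.1 and 13.9 progenitor-marker UMIs per 10000 against a median of 19.5 in the 73 other progenitor-like wells. Well 225 of plate 2 was neutrophil-like with 311 neutrophil-marker UMIs per 10000, below the lowest of the 120 other neutrophil-like wells (322). It also held 13.1 progenitor-marker UMIs per 10000, over 8 of the 14 progenitor markers. The 120 other neutrophil-like wells had a median of 2.65 and a highest of 18.8. Well 121 of plate 1 held fibroblast markers (214 per 10000) beside neutrophil markers (213 per 10000). Well 134 of plate 2 held 1724 muscle-marker UMIs per 10000 beside a median of 1828 in the 12 other muscle-like wells. It also held 396 UMIs over 13 of the 16 macrophage markers, or 29.0 per 10000. The 12 other muscle-like wells had a median of 1.76 per 10000 and a highest of 75.3. Whether a rich well received more than 1 cell was not tested.

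HMOX1, which encodes heme oxygenase and breaks heme down, split the rich wells. It had 276 UMIs in well 167, 124 in well 16 and 401 in well 134, and 0 to 2 UMIs in the other 6. CPM is the usual scaling of a count to the total UMIs of the well or set of wells. HMOX1 had 11970 CPM in well 167, 7473 in well 16 and 2936 in well 134. The median of the macrophage-like wells that were not rich was 881 CPM in the mCherry+ gate and 72.1 CPM in the mCherry- gate. These reference wells cover every macrophage-like cluster. Wells 167 and 16 fell into the cluster led by HMOX1 and SLC40A1, and its other wells were not set apart for comparison. The iron exporter SLC40A1 had 18, 87.9 and 63.5 UMIs in wells 167, 16 and 134, and at most 2 in the others. This was 782 CPM in well 167 and 5306 in well 16, against medians of 1473 CPM in mCherry+ and 132 CPM in mCherry- macrophage-like wells that were not rich. These 2 genes were named after their values were seen.

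Outside the rich wells the 6 genes lay at a low level in both gates. On plate 1 they had 132 CPM in mCherry+ wells and 116 in mCherry- wells that were not rich, and on plate 2 they had 87.3 in mCherry+ and 98.5 in mCherry- wells. The direction differed between the plates. The highest value of a named class was that of the 3 mCherry- muscle-like wells of plate 1, with 552 CPM, against 71.4 CPM in the 3 mCherry+ muscle-like wells there, and 24.03 of their 28.03 UMIs lay in 1 well. The scaled level was higher in shallow wells. It was 437 CPM in kept wells of under 2000 UMIs, 97.1 at 5000 to 10000 and 100.1 above 20000. Wells under the minimum had 1346 CPM. Per well, the same bins held 0.444, 0.740 and 4.34 UMIs, and the wells under the minimum 0.244. Summed over all wells that were not rich, these UMIs equaled 4.37% of those in the rich wells of plate 1 and 5.20% on plate 2. Whether they were carried over from rich wells or from free RNA was not tested.

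Progenitor-like wells, apart from the 2 rich ones, also held few of these transcripts. With the 6 genes summed, they held somewhat more than macrophage-like and neutrophil-like wells, but not more than every class. Together the 6 genes had 116 UMIs or 138.6 CPM there (95% exact Poisson interval 114.6 to 166.3). Macrophage-like wells that were not rich had 102.2 CPM (89.6 to 116.1), and neutrophil-like wells had 101.8 CPM (83.5 to 122.9). On plate 2 alone it was 121.2 CPM (72.98 to 189.3) in 17 progenitor-like wells, against 101.2 (85.3 to 119.1) in macrophage-like and 92.4 (63.6 to 129.8) in neutrophil-like wells. The intervals overlapped in each of these comparisons, barely so between progenitor-like and macrophage-like wells over both plates. Fibroblast-like wells that were not rich had 128.1 CPM. The 70 wells of the larger unnamed cluster, with a median depth of 2385 UMIs, had 161 CPM. Among plate 1 mCherry+ wells that were not rich, the 6 genes had 138 CPM in progenitor-like, 128 in macrophage-like and 142 in neutrophil-like wells. hbae3 was detected in 42 of the 73 progenitor-like wells that were not rich (57.5%), never above 5 UMIs. Its 72 UMIs in all gave 86.1 CPM (95% exact Poisson interval 67.3 to 108). Macrophage-like wells that were not rich had 72.8 CPM (62.2 to 84.7), and neutrophil-like wells, the class taken to lack these genes, 67.9 CPM (53.1 to 85.5). The intervals overlap, which is no test of a difference, and a difference between the classes was not tested. By class, hbae3 outside rich wells ran from 108 CPM in unnamed wells, the shallowest, through 86.2 in fibroblast-like, 86.1 in progenitor-like, 72.8 in macrophage-like and 67.9 in neutrophil-like wells to 61.4 in muscle-like wells, the deepest. By gate, the 6 genes together had 136 CPM in the 54 mCherry+ and 152 in the 19 mCherry- progenitor-like wells that were not rich. With each well thinned to 2000 UMIs, hbae3 was seen in 21.5% of 65 progenitor-like wells (12.3 to 33.5%, exact Clopper-Pearson, 61.5% before thinning, median depth 10187 UMIs, 8 shallower wells left out). In 113 neutrophil-like wells it was seen in 13.3% (7.62 to 21.0%, 40.7% before thinning, median depth 8646 UMIs, 7 left out), and in 212 macrophage-like wells in 11.3% (7.39 to 16.4%, 48.6% before thinning, median depth 10557 UMIs, 4 left out). These intervals overlap too. Of the other 5 genes, alas2 had 8 UMIs in the 73 wells, hbae1.3 and hbae1.1 had 7 each, HBE1 17 and cahz 5. Of the 11 hbae1.1 UMIs outside rich wells, 7 lay in these wells, each in a different well, against 0 in the 215 macrophage-like and 0 in the 120 neutrophil-like wells that were not rich. A further 3 lay in 2 of the 22 fibroblast-like wells that were not rich, and 1 in an unnamed well. In CPM, hbae1.1 was at 8.37 in the progenitor-like and 6.98 in the fibroblast-like wells. By gate, 10 of the 11 UMIs lay in plate 1 mCherry+ wells, 1 in plate 2 mCherry+ wells and 0 in mCherry- wells. Of the wells that were not rich, plate 1 mCherry+ held 42 progenitor-like but only 29 macrophage-like and 15 neutrophil-like ones. Class was thus not separated from gate and plate for hbae1.1.

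Other red-cell genes divided between the rich and the progenitor-like wells. The lists held 3 further globins, heme synthesis, red-cell membrane, erythroid factors, antioxidants and enzymes, and maturation genes. They were chosen with earlier results of these data known, and the shares below are a description. All 3 further globins had over 50% of their UMIs in the rich wells. hbae1.2 had 98.2%, the beta-type hbbe3 93.1% and hbae5 59.5%. Outside the globins, nt5c2l1, a nucleotidase gene, had 88.7% and hemgn, a nuclear regulator of red-cell formation, 57.8%. Of 12383 genes with at least 20 UMIs, 28 had over 50% of their UMIs in the rich wells, and the median gene had 2.94%.

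Most factors of red-cell development had larger shares in the progenitor-like than in the rich wells. The progenitor-like wells held 13.5% of all UMIs and the rich wells 4.48%, so raw shares favor the former. Of 12 factors with at least 20 UMIs, TAL1 and LMO2 included, 9 also exceeded 4.48% in the rich wells, as did 3498 of all 12383 such genes. TAL1 and LMO2 are among the markers that named the progenitor-like class and are not counted. Of the other 10 erythroid factors and receptors with at least 20 UMIs, 9 had a larger share in the 73 progenitor-like wells than these wells' 13.5% of all UMIs, as did 6065 of all 12383 such genes. The median share was 60.4% over the 10 and 13.1% over all genes. gata1a, a master regulator of the lineage, had 15% in the rich wells and 64.7% in the progenitor-like wells. klf1, a factor of globin gene control, had 12.5% in rich and 56.8% in progenitor-like wells, and EPOR, the erythropoietin receptor, 6.71% and 69.1%. hemgn went the other way, with 57.8% in rich and 32.8% in progenitor-like wells. These shares are sums over wells. Of the 73 progenitor-like wells, gata1a was seen in 19, klf1 in 16, EPOR in 29 and hemgn in 11. The 11 wells picked by SLC4A1 below held 68.1 of the 86.1 gata1a UMIs in these 73 wells. They also held 31 of 50 klf1, 58.1 of 103.1 EPOR and 57 of 59 hemgn UMIs. In CPM, gata1a had 72.2 in rich and 103 in progenitor-like wells, klf1 39.7 and 59.8, and EPOR 36.1 and 123. Higher in rich wells by CPM were hemgn (376 and 70.6) and, slightly, klf17 (43.3 and 39.5) and stat5a (54.1 and 52.6). In heme synthesis, UROD had 8% in rich and 53.5% in progenitor-like wells, and FECH, which inserts the iron, 1.98% and 60.4%. UROD was seen in 26 and FECH in 12 of the 73 wells. ALAS1, the housekeeping counterpart of alas2, had 1.88% in rich and 2.93% in progenitor-like wells. Of the other abundant list genes, the rich wells, with 4.48% of all UMIs, held 14.2% of TMOD4, 8.47% of RHAG, 4.71% of ABCB6 (ENSDARG00000074254), 3.35% of stat5a, 3.11% of gpx1a, 5.86% of UBE2H and 2.18% of MXI1 UMIs. By the same measure the 6 genes had 90.4 to 96.5% in rich and 0.359 to 5.21% in progenitor-like wells.

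**Figure D4:**
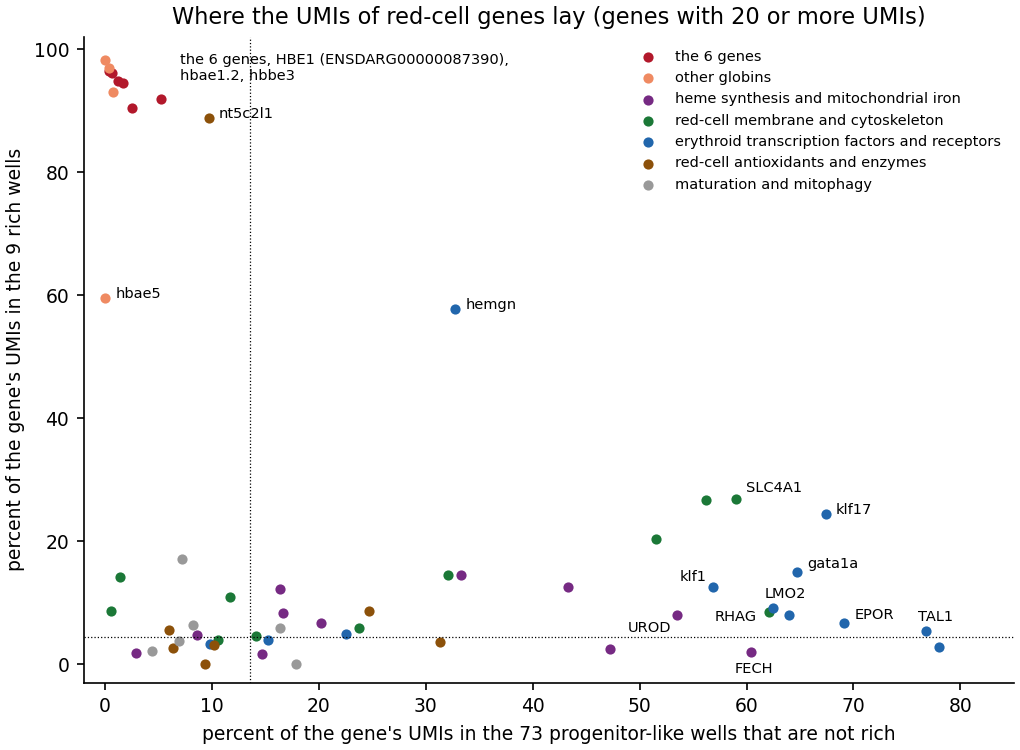
Percent of each red-cell gene's kept-well UMIs in the 9 rich wells (vertical axis) against that in the 73 progenitor-like wells that were not rich (horizontal axis), for genes with at least 20 UMIs. Dotted lines mark these wells' shares of all UMIs, 4.48% and 13.5%; the 6 genes sit at upper left, and gata1a, TAL1, EPOR and RHAG at lower right.

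SLC4A1 (ENSDARG00000012881), the anion exchanger of the red-cell membrane, was high in the rich wells and in some progenitor-like wells. It had 1116 CPM summed over the rich wells and 809 CPM summed over the 73 progenitor-like wells. Of these 73, 49 had no SLC4A1 UMI and 13 had 1 to 9, with 23 UMIs in all. The 11 wells described next held 654 of the 677 UMIs. A threshold of 10 UMIs, chosen after the values were seen, picked 11 of these 73 wells, 10 mCherry+ and 1 mCherry-, with 17 to 155 SLC4A1 UMIs each. The 9 rich wells had 7.01 to 119. The rich wells held 11130 hbae3 UMIs in all, against 22 in the 11 wells. Per SLC4A1 UMI, hbae3 was at 36.0 in the rich wells and 0.0336 in the 11 wells. The direction of this contrast follows from how the wells were chosen, so it is a description only. The rich wells were chosen on a sum that hbae3 dominates. The 11 wells were chosen on SLC4A1 among wells that were not rich. RHAG had 87.4 UMIs in the rich wells against 347 in the 11 wells, gata1a 20 against 68.1 and EPOR 10 against 58.1. hemgn went the other way, with 104 UMIs in the rich wells against 57 in the 11 wells. Of the 11 wells, 10 came from plate 1.

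The gates were compared on summed wells. The question was whether macrophages that carry HSPC-derived mCherry differ in these genes from those that do not. Summed over all kept wells, hbae3 had 3479 CPM on plate 1 and 1423 on plate 2 in mCherry+ wells, against 85 and 1733 in mCherry- wells (scaled by TMM). Plate 1 thus had far more in the mCherry+ gate, while plate 2 had slightly less. The log2 fold change was 2.50 (SE 1.3, adjusted p = 0.373, edgeR quasi-likelihood test with Benjamini-Hochberg adjustment over 9904 genes). The sums had 7336 and 2443 UMIs in mCherry+ and 110 and 1685 in mCherry- wells. None of the 6 genes passed 0.05, where 4.75% of all genes did, and 0 of 6 had an unadjusted p under 0.05 by edgeR and 1 by DESeq2, which called 0 (3.96% of all genes). The other 5 had log2 fold changes of 1.57 (alas2, SE 0.82) to 2.03 (hbae1.3, SE 1.56), with adjusted p of 0.373 to 0.581. The single-plate log2 fold changes of all 6 were 3.57 to 5.42 on plate 1 and -1.0 to -0.16 on plate 2, so plate 1 set the sign.

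Once the 9 rich wells were left out, the gates lay close together, and 0 of the 4 genes tested passed (0 unadjusted by edgeR), where 7.97% of all genes did. hbae3 then had 154 and 111 UMIs in mCherry+ wells and 110 and 69 UMIs in mCherry- wells, a log2 fold change of -0.14 (SE 0.39, adjusted p = 0.907). hbae1.3 was at -0.26 (SE 0.51), HBE1 at 0.17 (SE 0.55) and alas2 at -0.52 (SE 0.82). cahz, with 8 and 6 UMIs in mCherry+ and 3 and 0 in mCherry- wells, was below the count filter. So was hbae1.1, with 10 and 1 UMIs in mCherry+ and none in mCherry- wells. Without a low-count filter 4 of the 6 genes were called over all kept wells, where 4.95% of all genes were.

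**Figure D5:**
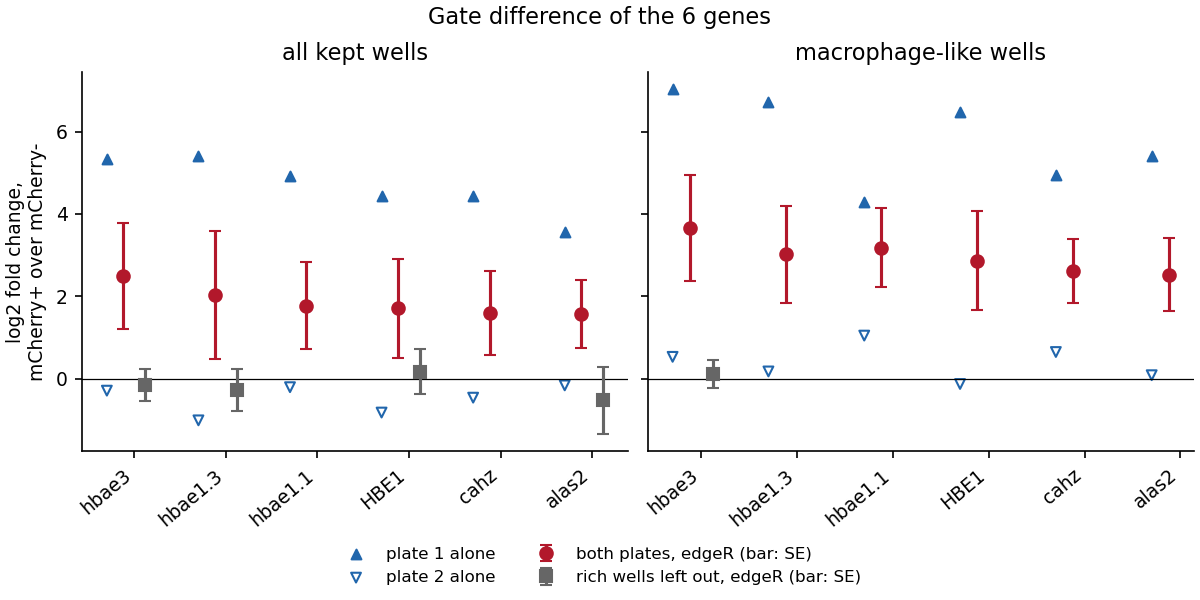
Log2 fold change of mCherry+ over mCherry- for the 6 genes, over all kept wells (left) and macrophage-like wells (right). Circles with SE bars are the fits over both plates, squares those without rich wells where a gene could be tested, and triangles each plate alone; plate 1 lies at 3.57 or above and plate 2 at 1.05 or below for every gene.

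Within macrophage-like wells 4 wells held nearly all of these transcripts. hbae3 had 10344 and 1479 CPM in mCherry+ and 76.2 and 1019 CPM in mCherry- macrophage-like wells of plates 1 and 2, with 2974, 1375, 41 and 508 UMIs. The log2 fold change was 3.66 (SE 1.29, adjusted p = 0.132, edgeR with Benjamini-Hochberg adjustment over 5400 genes). All 6 genes had an unadjusted p under 0.05 and none passed after adjustment, with adjusted p of 0.0733 (cahz) to 0.215 (HBE1), where 5.89% of all genes passed. DESeq2 called 0, and gave 0 with an unadjusted p under 0.05, where it called 1.57% of all genes. The call changed when a single well was left out. With that well kept, it also changed on distinct UMIs before the tag correction. Without plate 2 well 366, an alternative chosen after the values were seen, the log2 fold changes were 5.25 to 7.63 and all 6 passed (adjusted p 4.67e-04 to 0.0134, where 5.06% of all genes passed). Without wells 141 and 366, also chosen after the values were seen, all 6 passed as well (10.8% of all genes). So did all 6 at a minimum of 2000 UMIs per well (8.26%), 5 of 6 on distinct UMIs before the tag correction (8.20%) and hbae3, the only one tested, without the largest well of each sum (9.86%). The minimum of 2000 UMIs also dropped well 366, which had 1964, and so did the setting without the largest wells. Well 366 was the only rich mCherry- well named macrophage-like. Wells 366 and 141 held only 2 and 1 UMIs over the 16 macrophage markers, so their markers do not bear out that name. The settings without well 366 left rich wells in the mCherry+ gate only and are no separate support. Without any rich well only hbae3 could be tested, with 24 and 67 UMIs in mCherry+ and 41 and 36 UMIs in mCherry- wells, and its log2 fold change was 0.12 (SE 0.34, adjusted p = 0.920, where 5.86% of all genes passed). With the 6 genes and the red-cell lists kept in the clustering, no macrophage-like well was rich, and hbae3, again the only one tested, was at 0.05 (adjusted p = 0.972).

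Few genes of the red-cell lists passed between the gates. Over all kept wells, AQP1 and TMOD4 of 10 membrane and cytoskeleton genes tested rose in the mCherry+ gate, where 2.42% of all genes rose and 2.32% fell. AQP1 (ENSDARG00000023713), a water channel, had 14 and 332 UMIs in mCherry+ and 1 and 12 in mCherry- wells (log2 3.80, adjusted p = 0.00661), and 84.4% of its UMIs lay in 1 fibroblast-like well. TMOD4, a tropomodulin, had 347 and 737 UMIs against 49 and 65 (log2 2.40, adjusted p = 0.00960), and 78.5% of its UMIs lay in muscle-like wells that were not rich. Without muscle-like wells it was at -0.24 (adjusted p = 0.897). Of 11 heme, 11 factor, 5 maturation and 2 globin genes none passed (2, 5, 1 and 0 with an unadjusted p under 0.05 by edgeR, and none adjusted by DESeq2). The median log2 fold change was 1.26 over the factors, 0.86 over the globins, 0.42 over the heme genes and -0.12 over the maturation genes, beside 0.03 over all genes tested. In macrophage-like wells none of the 22 list genes tested passed by edgeR or DESeq2, with 7 and 1 at an unadjusted p under 0.05.

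With the rich wells left out, several other red-cell genes passed between the gates while none of the 6 did. SLC4A1 had 717 and 43 UMIs in mCherry+ and 69 and 9 UMIs in mCherry- wells (log2 2.24, SE 0.47, adjusted p = 0.00843). RHAG, an ammonium channel of the red-cell membrane, had 712 and 109 against 88 and 35 (log2 1.64, adjusted p = 0.0374). SPTB (log2 1.46, adjusted p = 0.0421), gata1a (2.55, adjusted p = 0.0199) and EPOR (1.91, adjusted p = 0.0396) passed as well, named after their values were seen, where 3.86% of all genes rose and 4.12% fell. With the rich wells included the adjusted p of these 5 genes were 0.0780 to 0.480 by edgeR and 0.0548 to 0.744 by DESeq2. Without muscle-like wells they were 0.169 to 0.561 by edgeR. Without the largest well of each sum SLC4A1, SPTB and gata1a passed by edgeR (0.0217 to 0.0399), and EPOR and RHAG did not (0.0782 and 0.0897). With the rich wells left out, neither DESeq2 nor a fit without muscle-like wells was run. TMOD4 passed here too. Progenitor-like wells held 59.0% of SLC4A1, 62.1% of RHAG, 64.7% of gata1a, 69.1% of EPOR and 32.1% of SPTB UMIs, with a further 44.6% of SPTB UMIs in muscle-like wells, and they were 30.8% and 9.76% of mCherry+ against 9.27% and 4.27% of mCherry- wells on plates 1 and 2. The 14 progenitor markers measured summed to 798 and 284 CPM in mCherry+ and 499 and 378 CPM in mCherry- wells, with 13 or 14 of them detected in each sum and RUNX1 at 0 in 3 of the 4. The part of class make-up in these results was not tested.

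The 3 genes most like the 6 in pattern were HBE1 (ENSDARG00000087390), hbbe3 and SLC4A1. Likeness was Pearson r over kept wells between log2(CPM + 50) of each of 10067 genes and that of the 6 summed, taken within each plate and ranked by the lower of the 2 values. These are descriptions across 294 and 240 wells that share plates and depth. HBE1 (ENSDARG00000087390) had r of 0.697 on plate 1 and 0.568 on plate 2, hbbe3 0.429 and 0.556, and SLC4A1 0.373 and 0.544. ENSDARG00000044212 (0.463 and 0.366) had 81.8% of its UMIs in rich wells, and ENSDARG00000078293, SPTB, TMOD4, zgc:56095, ENSDARG00000063345 and ENSDARG00000009867 followed with a lower r of 0.212 to 0.273. Among the 6 themselves r was 0.901 and 0.911 for hbae3, which dominates the sum, and 0.670 or above for hbae1.3, HBE1 and alas2. cahz and hbae1.1 had UMIs in too few wells for this measure. When the 6 genes and the red-cell lists were kept among the variable genes, 8 of the 9 rich wells formed a cluster of 8 wells and well 134 stayed with the muscle-like ones. That grouping uses these genes and is no separate result.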

How the data were processed

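Transcripts of single sorted cells were measured by SORT-seq, a plate method with a barcode per well. Per the submitters' processing notes, BWA, Seurat and the build GRCz11 were used, with no versions given. The deposited values are expected counts, which can hold fractions because the authors corrected distinct UMIs for repeated tags of 6 bases. Every nonzero value lay within 0.005 of that formula. How reads shared by related globins were counted is not given in the sources used here. Spike-ins (1.13% of counts) were set aside.

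Wells with at least 500 UMIs and 200 genes were kept, which left out 234 wells. Wells were clustered (scanpy 1.11.5, leidenalg 0.10.2) on log values scaled to 10000 UMIs, 2000 variable genes, 30 components, 15 neighbors and Leiden resolution 1, without the 6 genes and the red-cell lists. A cluster was named from at least 3 markers raised by 1 log2 unit. The naming rule and the lack of per-gene scaling were settled after the data had been seen. No doublet caller was run.

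UMIs were summed per gate and plate, rounded and passed through filterByExpr and TMM scaling. The test was edgeR's quasi-likelihood F test (version 4.0.16 in R 4.3.3), blocked by plate since each plate holds both gates. Sums of the same plate deviated together with r = 0.124 over all wells and 0.0650 in macrophage-like wells, over 2 pairs. SE is the fold change divided by the square root of F. Single-plate values use a prior count of 2. DESeq2 1.42.0 was an alternative. The edgeR step was tested on simulated data. The labels give the plates as separate samples but not separate clutches, so p-values measure only the spread between these plates. Symbols came from a table that named 17425 of 22342 identifiers, and of 78 list names 60 identifiers were found. Neighbor order came from RefSeq's GRCz12tu annotation, another build, with no coordinates used.

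A list result is not reported here. Named were all 6 genes, up to 4 called genes and the 2 most abundant of each list, the 10 most alike genes and the wells with the largest shares. The 6 genes and the lists were chosen with earlier results of these data known. Alternatives covered tool, filter, block, well minimum, single wells, tag correction and clustering.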

Additional observations from a re-analysis of the deposited data

Results flagged for a closer look

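Wells under the minimum, which enter none of the comparisons, held 57 UMIs of the 6 genes. They lay in 48 of 234 such wells (20.5%, 95% exact Clopper-Pearson interval 15.5 to 26.3%), at most 3 per well. Of these UMIs 48 were hbae3 and 0 were hbae1.3. By gate the mCherry+ wells held 18 and 16 UMIs and the mCherry- wells 7 and 16 UMIs on plates 1 and 2. There was no empty-well control, and the source of these UMIs was not tested.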

How the results depend on the processing

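Over all kept wells, 4 of the 6 genes passed without a low-count filter and 0 under every other setting with a test. The genes called in all moved to 1102 without the filter, 57 with no replicate block, 794 without rich wells and 36 without muscle-like wells, against 470. Without rich wells the log2 fold changes of hbae3, hbae1.3 and alas2 were -0.14, -0.26 and -0.52. Each plate alone gave -0.28 to 5.33 for hbae3, -1.0 to 5.42 for hbae1.3, -0.20 to 4.92 for hbae1.1, -0.82 to 4.44 for HBE1, -0.45 to 4.45 for cahz and -0.16 to 3.57 for alas2. In macrophage-like wells 6 of the 6 genes passed at a minimum of 2000 UMIs and 6 without the macrophage-like well of highest share on plate 2, alone or together with that of plate 1, while 5 passed on distinct UMIs before the tag correction, and 1 (hbae3, the only one tested) without the largest well of each sum. All of these but the setting on distinct UMIs left out plate 2 well 366, the only rich mCherry- macrophage-like well. The genes called were 85 by DESeq2, 0 without the filter (1084 with an unadjusted p under 0.05), 91 with no replicate block, 525 without the largest wells, 139 at Leiden resolution 0.5 and 583 without the wells of highest share, against 318. HBE1 on single plates was at -0.12 to 6.46. The causes were not tested. Rich wells numbered 25 at a threshold of 0.1% and 5 at 10%, and 4 and 5 on each plate alone. The 16 added at 0.1% held 1.00 to 31.1 UMIs of the 6 genes. hbae3 was seen in 7.04% of progenitor-like wells thinned to 1000 UMIs and 34.9% at 4000, beside 7.56% and 23.4% of neutrophil-like wells, so their order at 2000 turned at 1000. The make-up of the 6 genes moved by less than 1 SD on distinct UMIs. A planned search of promoters for motifs was not run. Depth limits all statements on wells that are not rich.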
